A study of Drosophila melanogaster with 16 samples.

Results

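The genes described here are 8 genes that neurons of *Drosophila melanogaster* are known for, followed in RNA of dissected adult hearts: *elav*, *nSyb*, *Syt1*, *brp*, *VGlut*, *ChAT*, *VAChT* and *Csp*. They were chosen by name. A probeset (a set of short array probes read as 1 value) was taken where the platform annotation gives it exactly 1 gene symbol and that symbol is one of the 8. This gave 11 of the 18769 probesets tested, for 7 of the 8 genes. *brp* had 4 probesets, *VGlut* had 2, and the other five genes had 1 each. *Syt1*, which encodes the calcium sensor of fast transmitter release, had no such probeset and is not analysed here.

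The adult fly heart is a muscle tube that makes its own beat, and nerves that end on it adjust the beat. Neurons release transmitter from small vesicles that are filled by a transporter, docked at a release site called the active zone, fused with the cell membrane and then recovered. Glutamate is the transmitter of fly motor neurons, acetylcholine that of most sensory neurons and of many neurons in the brain, and the peptide CCAP, which stimulates the heartbeat, is made by a small number of neurons.

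RNA was read on 16 Affymetrix Drosophila Genome 2.0 arrays, each from a pool of 30 hearts, and the flies were 3 weeks old. Hearts of *sei* mutants (allele *sei*ts1, a chemically induced stop codon ahead of the membrane-spanning part of a potassium channel related to human hERG; n = 5) were set against Canton-S hearts, called WtCS (n = 5). Hearts of *KCNQ* mutants (n = 3), in which a P-element insertion was excised imprecisely so that the reading frame of another potassium channel meets a stop codon, were set against a precise-excision line in the w1118 background, called WtPE (n = 3). The labels give the mutant allele as KCNQ37 and the control line as KCNQ97. The flies were kept apart by sex, without a statement of which sex was dissected. Attached fat and air tubes were sucked off the hearts before the RNA was extracted, and no step to collect or remove nerve is described for the arrays. The paper calls hearts in the semi-intact preparation, which it used to film the beat, denervated. In such bulk RNA, fewer neurons, less RNA per neuron and RNA of the same genes from other cells cannot be told apart.

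Array names put the arrays in 3 runs. Run A holds replicates 4 and 5 of WtCS and of *sei* and all 6 WtPE and *KCNQ* arrays, run B holds WtCS replicates 1 and 2, and run C holds WtCS replicate 3 with *sei* replicates 1, 2 and 3. Over all probesets *sei* replicate 5 correlated with the other *sei* arrays at 0.939 to 0.969, where *sei* replicates 1, 2 and 3, all of run C, correlated with each other at 0.985 to 0.991. *sei* replicate 4, of run A like replicate 5, correlated with replicates 1, 2 and 3 at 0.962 to 0.966. The probeset of *sei* itself lay between 3.89 and 5.25 on the log2 scale in the 5 *sei* arrays and between 5.31 and 6.03 in WtCS, without overlap, and fell by 0.96 ± 0.25 (SE; limma, adjusted p = 0.0212). All 8 heart and muscle markers with a probeset had means above the dim reference defined below, among them *Hand*, a transcription factor of heart cells, at 11.83 to 12.43 in single arrays, while *tin* and *Mhc* had no probeset with 1 symbol.

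Every level below is the log2 of the array intensity, and a difference of 1 is a doubling of intensity. The files hold no call of presence or absence. As a dim reference, 62 probesets of odorant receptor genes, which neurons of the antenna and palps express, were read on the same arrays. Their means over the arrays had a median of 1.67 and a 95th percentile of 2.76, but the highest lay at 5.82, so the reference gives a usual dim level and no limit. The dim reference below is 2.76, a level of means. Values of single arrays spread more, and their 95th percentile was 3.195 in the same odorant receptor probesets. Probesets differ in how brightly they bind, and levels of different genes were therefore not ranked. Of the 11 probesets, 5 had a mean above 2.76: those of *elav*, *nSyb*, *Csp* and *ChAT* and 1 of *brp*. *elav*, *nSyb* and *Csp* were above 2.76, and also above 3.195, on all 16 arrays.

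*elav* showed no difference between genotypes that passed the test. It encodes an RNA-binding protein of neuronal nuclei and had 5.79, 6.15, 6.43, 6.68 and 5.43 in the WtCS arrays, listed here and below in replicate order, and 5.84, 6.12, 6.16, 5.09 and 5.43 in the *sei* arrays. It had 6.32, 5.64 and 5.24 in WtPE and 5.79, 5.22 and 5.47 in *KCNQ* hearts. The 4 genotypes overlapped. The difference between *sei* and WtCS was -0.37 ± 0.28 (SE; limma, adjusted p = 0.485), with a 95% interval from -0.96 to 0.23, and that between *KCNQ* and WtPE was -0.25 ± 0.36 (adjusted p = 1), from -1.02 to 0.52. With run as a covariate the difference in *sei* was -0.62 (adjusted p = 0.214) and within run A it was -0.79 (adjusted p = 0.261).

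*nSyb* encodes neuronal synaptobrevin, the vesicle protein that drives fusion. Its levels were 5.36, 5.03, 5.18, 5.49 and 5.60 in WtCS, 5.06, 5.38, 4.92, 5.01 and 6.04 in *sei*, 5.00, 4.64 and 5.04 in WtPE, and 5.05, 5.07 and 4.91 in *KCNQ* hearts. The highest of the 16 values was that of *sei* replicate 5. The genotypes overlapped, and *sei* differed from WtCS by -0.05 ± 0.20 (adjusted p = 0.921; 95% interval -0.49 to 0.38).

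*Csp* encodes cysteine string protein, a chaperone of synaptic vesicles. It had 8.53, 8.62, 8.48, 7.80 and 7.84 in WtCS, 8.97, 8.19, 8.41, 8.71 and 8.78 in *sei*, 9.37, 8.93 and 8.88 in WtPE, and 9.32, 8.74 and 9.13 in *KCNQ* hearts. Each of the 6 WtPE and *KCNQ* arrays was above every WtCS array. WtPE differed from WtCS by 0.81 ± 0.25, which did not pass the test over all probesets (limma, adjusted p = 0.0954), while *KCNQ* and WtPE differed by 0.00 ± 0.28 (adjusted p = 1; 95% interval -0.59 to 0.60). The WtPE arrays all belong to run A, and within run A the difference from WtCS was 1.24 ± 0.24 (adjusted p = 0.0043). The 2 WtCS arrays of that run are the lowest of the 16. *sei* differed from WtCS by 0.36 ± 0.22 (adjusted p = 0.351), by 0.92 within run A (adjusted p = 0.0536) and by 0.04 within run C (adjusted p = 1).

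**Figure D1:**
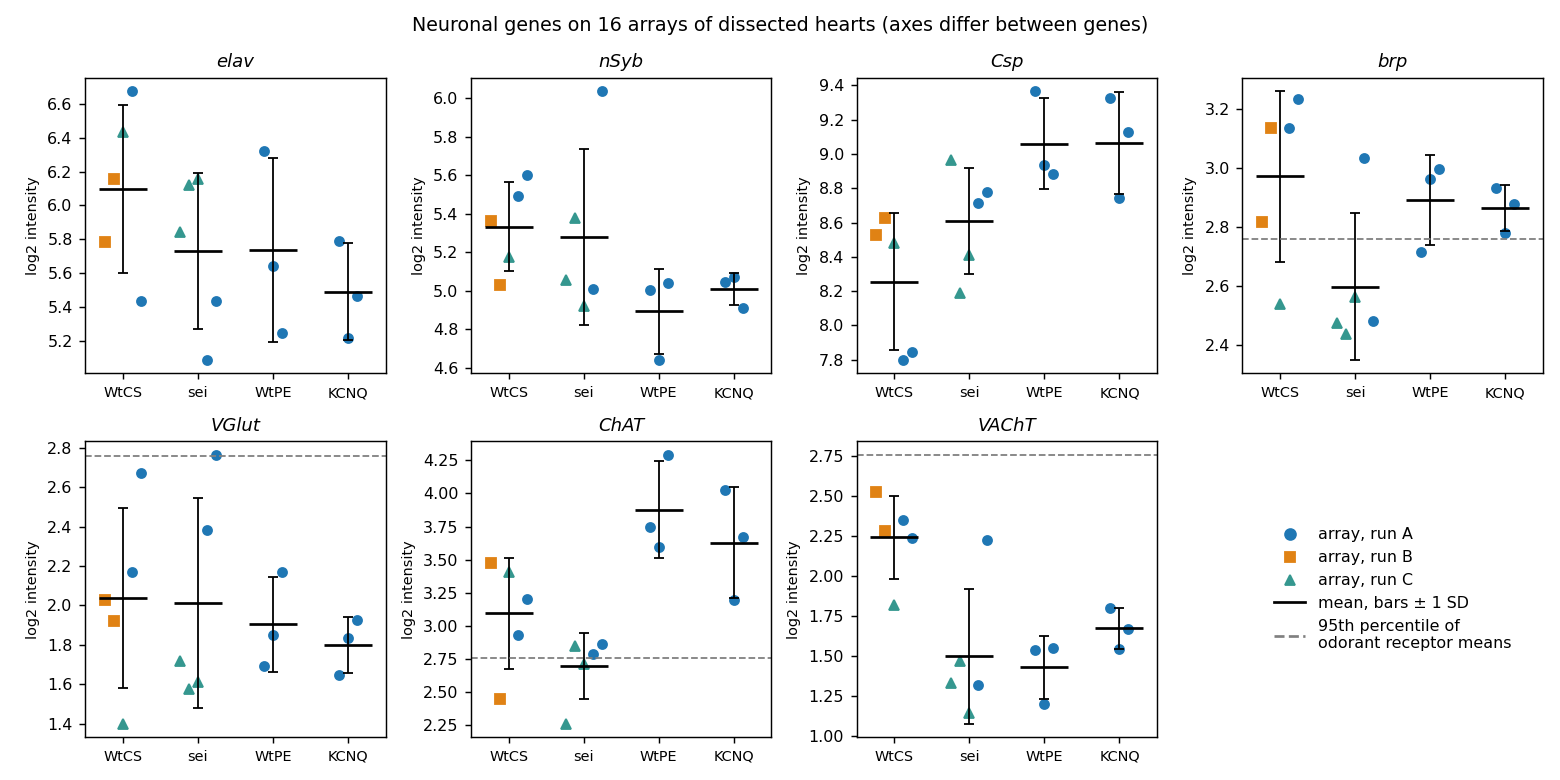
Log2 intensity of the brightest probeset of each of the 7 neuronal genes, by genotype, with 1 symbol per array whose shape and colour give the array run. Horizontal bars are means, vertical bars ± 1 SD, and the dashed line marks 2.76, the 95th percentile of the odorant receptor means, in panels that reach it. *Csp* and *ChAT* sit higher and *VAChT* lower in all 3 WtPE arrays than in all 5 WtCS arrays.

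*brp* encodes Bruchpilot, the scaffold of the active zone. Its brightest probeset had 2.82, 3.13, 2.54, 3.14 and 3.23 in WtCS, 2.47, 2.44, 2.56, 3.03 and 2.48 in *sei*, 2.72, 2.96 and 3.00 in WtPE, and 2.93, 2.78 and 2.88 in *KCNQ* hearts. Only 10 of its 16 values were above the dim reference, and only WtCS replicate 5 was above the single-array level of 3.195. *sei* differed from WtCS by -0.37 ± 0.17 (adjusted p = 0.185), by -0.05 within run C (adjusted p = 1), and the 4 probesets did not run the same way: the other three had 0.47 ± 0.26, 0.23 ± 0.28 and 0.05 ± 0.18 (adjusted p = 0.297, 0.689 and 0.92). On both probesets with the larger of these differences *sei* replicate 4 stood at 3.78, while the remaining *sei* arrays stood at 2.54 to 3.11 and at 2.07 to 2.58.

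*VGlut*, for the transporter that loads glutamate into vesicles, was dim on both probesets. The brighter had 2.03, 1.92, 1.40, 2.17 and 2.67 in WtCS, 1.72, 1.58, 1.61, 2.38 and 2.76 in *sei*, 1.70, 1.85 and 2.17 in WtPE, and 1.65, 1.83 and 1.93 in *KCNQ* hearts. A single value, that of *sei* replicate 5, reached the dim reference, and it was below the single-array level of 3.195. Differences were -0.03 ± 0.26 for *sei* against WtCS (95% interval -0.58 to 0.52) and -0.10 ± 0.33 for *KCNQ* against WtPE (-0.81 to 0.61), and neither passed (adjusted p = 0.972 and 1). Among *sei* arrays the 2 of run A were the highest on both *VGlut* probesets. WtPE differed from WtCS by -0.13 (adjusted p = 0.934) and within run A by -0.52 (adjusted p = 0.0919).

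The pair of acetylcholine genes lay on opposite sides of WtCS in the WtPE arrays. *ChAT* encodes the enzyme that makes acetylcholine, and *VAChT*, the transporter that loads it into vesicles, lies within the span of *ChAT* on chromosome 3R in the gene table, with a shared gene end. *ChAT* had 3.47, 2.45, 3.41, 2.93 and 3.21 in WtCS and 2.26, 2.85, 2.71, 2.79 and 2.87 in *sei*. It had 3.75, 3.60 and 4.29 in WtPE and 4.03, 3.19 and 3.67 in *KCNQ* hearts. The WtPE values lay above all those of WtCS, with a difference of 0.78 ± 0.26 that did not pass (adjusted p = 0.131), and the *sei* values overlapped with those of WtCS, with -0.40 ± 0.23 (adjusted p = 0.32), and the difference was -0.24 within run A (adjusted p = 0.744) and -0.80 within run C (adjusted p = 0.398).

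*VAChT* was the single member whose difference passed. It had 2.53, 2.28, 1.82, 2.35 and 2.24 in WtCS and 1.33, 1.47, 1.15, 1.32 and 2.22 in *sei*. *sei* replicates 1, 2, 3 and 4 were below every WtCS array, and replicate 5 was among the WtCS values. It fell by 0.74 ± 0.20 (adjusted p = 0.0255; 95% interval -1.17 to -0.32). It had 1.54, 1.20 and 1.55 in WtPE and 1.80, 1.55 and 1.67 in *KCNQ* hearts, each below all 5 WtCS arrays, and WtPE differed from WtCS by -0.81 ± 0.23 (adjusted p = 0.0673). No array reached the dim reference for *VAChT*. Within run A the difference of *sei* from WtCS was -0.52 ± 0.26 (adjusted p = 0.251) and with run as a covariate -0.51 ± 0.19 (adjusted p = 0.107), so the call was lost, as it was without WtCS replicate 1 or 2 or *sei* replicate 1, 2 or 3 (adjusted p from 0.0507 to 0.0683), whereas without *sei* replicate 5 the fall was 0.93 (adjusted p = 0.00149).

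In *sei* against WtCS 1 of the 11 probesets passed, beside 11.1% of all probesets tested. An unadjusted p under 0.05 by limma was found for 2 of the 11, beside 4552 of all 18769 probesets. In *KCNQ* against WtPE 0 of 11 passed by limma and 0 by an unmoderated fit of the groups compared with the same adjustment, beside 0.17% of all probesets by limma. By either, 0 had an unadjusted p under 0.05, beside 527 of all 18769 probesets by limma. The members' differences in *KCNQ* hearts ran from -0.25 to 0.24 and their 95% intervals together from -1.02 to 0.79. In WtPE against WtCS 0 of 11 passed, by limma or by the unmoderated fit, beside 3.67% of all probesets by limma. An unadjusted p under 0.05 was found for 3 by limma, beside 2798 of all 18769 probesets, and for 4 by the unmoderated fit. Those 3, of *Csp*, *ChAT* and *VAChT*, were also the only ones whose 2 groups did not overlap, beside 10.6% of all probesets without overlap. In *sei* and in *KCNQ* 0 of 11 were without overlap, beside 7.17% and 10.8% of all probesets.

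The 2 mutant effects were also compared with each other. The effect in *sei* less that in *KCNQ* passed for 0 of the 11 probesets by limma and 0 by the unmoderated fit, beside 1.39% of all probesets by limma. By each fit 1 of the 11 had an unadjusted p under 0.05, beside 2017 of all 18769 probesets by limma. That probeset was *VAChT* by limma, at -0.99 ± 0.33 (adjusted p = 0.218), and without *sei* replicate 5 it was -1.17 (adjusted p = 0.0263). *sei* and WtPE are both set against the same WtCS arrays, so their differences from WtCS are not independent of each other. Over the 7 genes the median difference was -0.37 in *sei*, -0.03 in *KCNQ* and -0.13 in WtPE, beside 0.04, 0.01 and -0.03 over all genes. These medians use the brightest probeset of a gene, and with the mean of a gene's probesets the median in *sei* was -0.05. Over the 11 probesets it was -0.03 in *sei*, with 6 below 0.

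**Figure D2:**
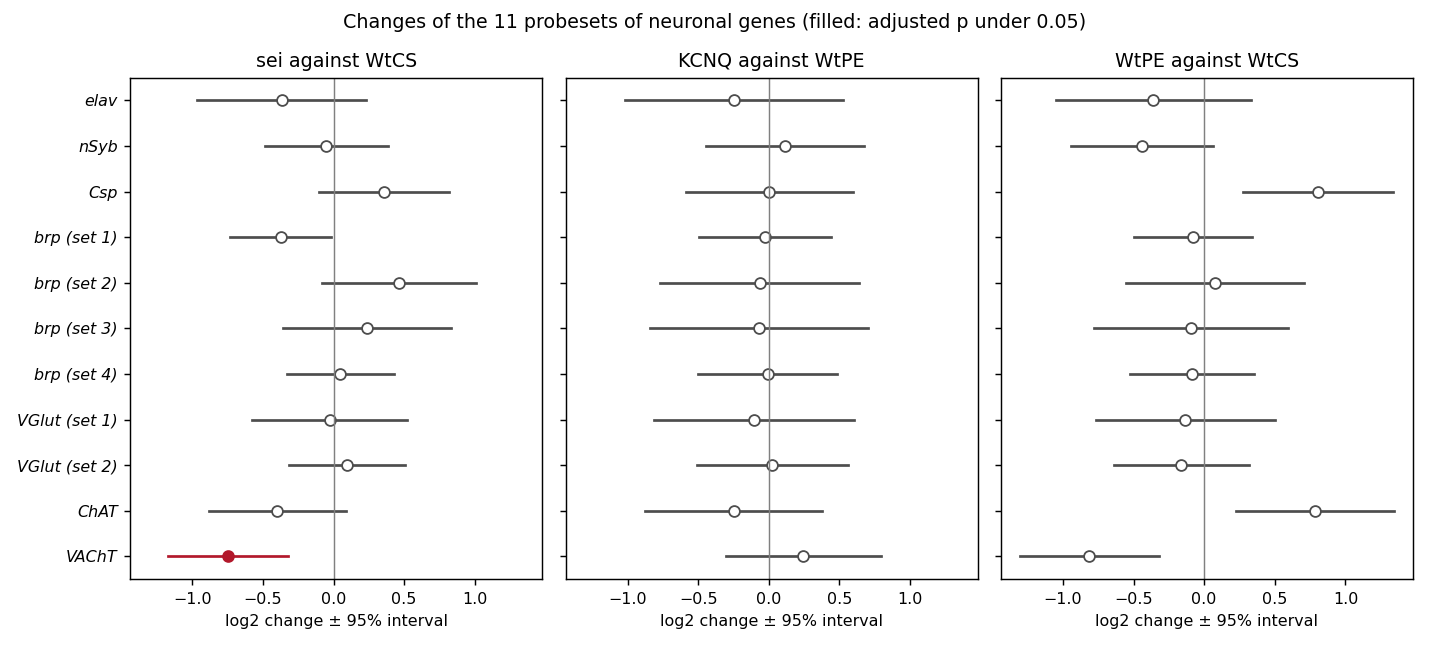
Log2 change of each of the 11 probesets in 3 comparisons, with its 95% interval from limma, and with the probesets of *brp* and *VGlut* numbered from the brightest down. The filled red point is *VAChT* in *sei* hearts at -0.74, and in *KCNQ* hearts every interval includes 0.

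The 7 genes did not go up and down together within a genotype. After the genotype mean was taken from each array, the 21 pairs of genes correlated over the 16 arrays at -0.72 to 0.82, with a median of -0.04, and 11 pairs were below 0. Highest were *nSyb* with *VAChT* at 0.82, *VGlut* with *VAChT* at 0.62 and *nSyb* with *VGlut* at 0.62, and lowest was *elav* with *VGlut* at -0.72. Without *sei* replicate 5 those of the first 3 pairs were 0.53, 0.34 and 0.33, that of *elav* with *VGlut* was -0.76, and *brp* with *VGlut*, at 0.85, was highest. In *sei* replicate 5, *nSyb*, *VGlut* and *VAChT* were 0.76, 0.75 and 0.72 above the *sei* mean, while *elav* was 0.29 below it (deviation -0.29). These correlations describe 16 arrays that share runs and normalization.

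Among 6290 other probesets with 1 symbol and a mean of at least 5, the deviations most like the members' mean deviation over the 16 arrays were those of *nrv3*, for a sodium pump subunit of the nervous system, at 0.87. Then came *CG1674* at 0.85, *pyd*, for a junction protein, at 0.82, *Msp300*, for a nuclear anchor of muscle, at 0.81, *nes* at 0.81 and *Tpst*, for a protein-sulfating enzyme, at 0.80. The *pyd* probeset here had a mean of 6.72 and was not its brightest, at 10.30, which served as a pericardial cell marker. *C3G*, *Ih*, for a channel opened by hyperpolarization, *Orai*, for a calcium entry channel, and *PIG-O* followed at 0.77 to 0.78, where the 95th percentile of those probesets was 0.54. The order depended on the arrays. Without *sei* replicate 5, *nrv3* had 0.76 and stood at rank 3 behind *CG1674* and *nes*, and the 10 genes ran from 0.49 to 0.84. Within run A *nrv3* had 0.81 and stood at rank 25. *nrv3* went with *VAChT* at 0.76 and *nSyb* at 0.67, but with *elav* at -0.12.

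**Figure D3:**
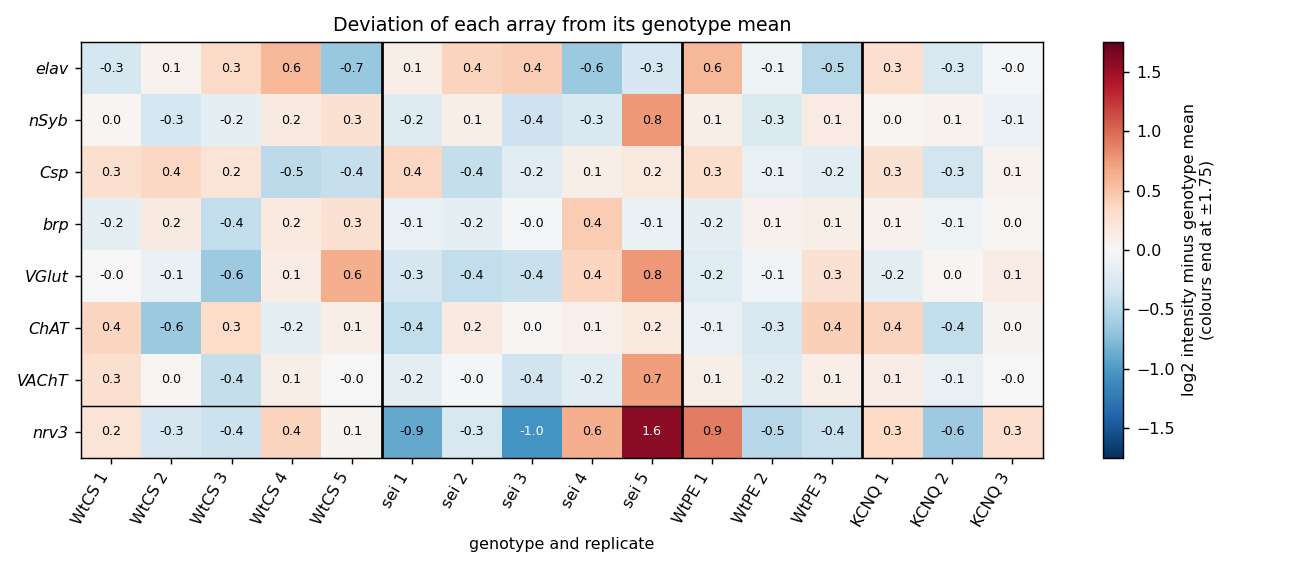
Deviation of each array from the mean of its genotype, in log2 units, for the 7 neuronal genes and for *nrv3*, the gene most like their mean over all 16 arrays but not without *sei* replicate 5 or within run A. Red is above and blue below the genotype mean, and *sei* replicate 5 is high for *nSyb*, *VGlut*, *VAChT* and *nrv3* but not for *elav*.

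Beyond the members, 7 lists of nerve genes held 105 genes, 91 of them measured by a probeset with 1 symbol, and 51 of these had a mean above the dim reference. In *sei* against WtCS 2 rose and 5 fell, 7.69% of the 91, beside 11.1% of all probesets, which were 2089. The 91 count 1 probeset per gene, while the share over all counts every probeset. The median of the 91 was -0.13, beside 0.04 over all genes. Within run A 5 rose and 6 fell, beside 1545 of all probesets called. With run as a covariate 2 rose and 8 fell, beside 1932 of all probesets. In *KCNQ* against WtPE 0 of 91 passed by limma and 0 by the unmoderated fit, beside 0.17% of all probesets by limma. At an unadjusted p under 0.05 were 2 and 4, beside 527 of all 18769 probesets by limma. The median of the 91 was -0.01. The count in *sei* was 11 without WtCS replicate 3, beside 2674 of all probesets called in that fit. In WtPE against WtCS 0 rose and 5 fell, 5.49% of the 91, beside 3.67% of all probesets, with a median of -0.07 beside -0.03 over all genes. That count was 2, 1 and 2 without WtPE replicates 1, 2 and 3. Within run A it was 20, of which 8 rose and 12 fell, beside 3568 of all probesets called. In the main fit 689 of all probesets passed. The *sei* effect less the *KCNQ* effect passed for 0 of 91 by limma and 0 by the unmoderated fit, beside 1.39% of all probesets by limma. At an unadjusted p under 0.05 were 13 and 11, beside 2017 of all 18769 probesets by limma.

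**Figure D4:**
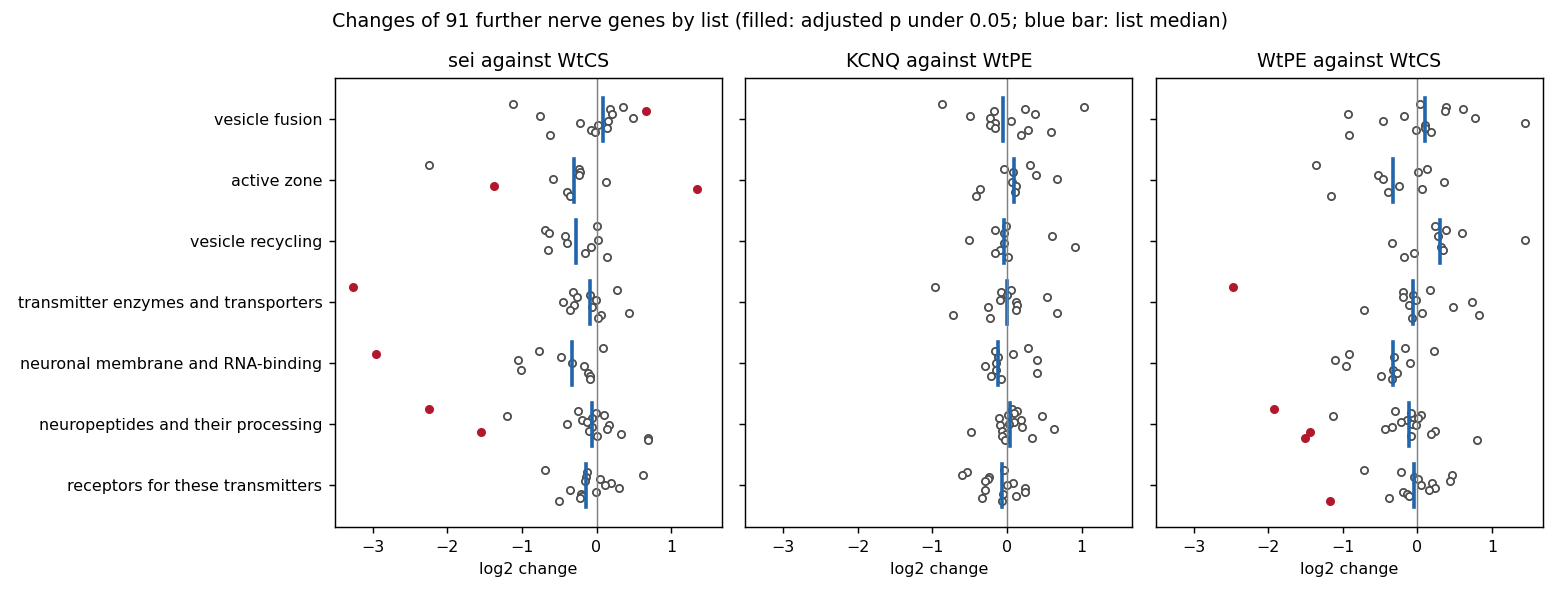
Log2 change of the 91 further nerve genes, 1 point per gene, by list and comparison, with blue bars for the list medians. Filled red points passed the test, 7 in *sei*, 0 in *KCNQ* and 5 in WtPE, and the genes farthest left in *sei* are *Ace* at -3.27 and *nrv3* at -2.95.

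Of the 14 measured genes of vesicle fusion 1 rose in *sei* hearts and 13 did not pass. It was *alphaSnap*, which takes used fusion complexes apart in all cells, with 6.65 to 7.49 in WtCS and 7.54 to 8.09 in *sei*, a rise of 0.66 ± 0.19 (adjusted p = 0.0354). Without overlap between the groups, it still lost its call without WtCS replicate 2, 3 or 4 or *sei* replicate 1, 2, 4 or 5 (adjusted p from 0.0503 to 0.0781). With run as a covariate *alphaSnap* rose by 0.95 ± 0.16 (adjusted p = 0.0028), and within run A by 1.01 ± 0.22 (adjusted p = 0.0157). Within run C its rise was 0.86. Of the 10 genes of vesicle recycling 0 passed by limma in *sei* hearts, and their median was -0.27. Of these 10, 3 had an unadjusted p under 0.05, beside 4552 of all 18769 probesets.

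Of the 10 active zone genes 1 rose, 1 fell and 8 did not pass in *sei* hearts, with a median of -0.30. *CASK*, for a membrane scaffold with a kinase-like domain, had 8.38 to 9.59 in WtCS and 7.18 to 8.61 in *sei*, a fall by 1.38 ± 0.32 (adjusted p = 0.0116). The difference was -0.82 within run A (adjusted p = 0.132), -1.01 within run C and -0.90 ± 0.23 with run as a covariate (adjusted p = 0.0235). *Sap47*, for a synapse-associated protein, had 4.84 to 6.30 in WtCS and 6.53 to 7.94 in *sei*, a rise of 1.34 ± 0.30 (adjusted p = 0.00853). Its dimmer probeset ran the other way, at -1.21 ± 0.44 (adjusted p = 0.0897), so no direction can be given for the gene as a whole. Within run A the brighter probeset had 0.60 (adjusted p = 0.328).

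Of the 91 genes, those with the largest falls were in the lists of transmitter and membrane genes. Of the 13 transmitter enzymes and transporters beside *ChAT*, *VAChT* and *VGlut*, 3 had a mean above the dim reference, and 1 fell in *sei* hearts. It was *Ace*, for acetylcholinesterase, which breaks acetylcholine down at the synapse, with 5.76, 6.16, 4.30, 4.87 and 3.65 in WtCS and 1.06, 1.25, 1.25, 2.51 and 2.33 in *sei*. It had 2.46, 2.32 and 2.66 in WtPE and 1.56, 1.45 and 1.53 in *KCNQ* hearts, so that only WtCS stood above the dim reference. It fell by 3.27 ± 0.41 in *sei* (adjusted p = 0.000105) and by 2.47 ± 0.48 in WtPE (adjusted p = 0.00787) against WtCS, and within run A the difference in *sei* was -1.84 ± 0.31 (adjusted p = 0.00371).

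Of the 11 genes of neuronal membrane and RNA-binding proteins 1 fell in *sei* hearts and 10 did not pass, with a median of -0.33. *nrv3*, named above, had 9.62, 9.08, 9.00, 9.76 and 9.43 in WtCS and 5.53, 6.15, 5.38, 7.06 and 8.02 in *sei*, with no overlap and the 2 *sei* arrays of run A highest. It fell by 2.95 ± 0.44 (adjusted p = 0.000498), and within run A the difference was -2.06 ± 0.50 (adjusted p = 0.0279). In WtPE it had 9.36, 7.95 and 8.06 and in *KCNQ* hearts 8.88, 7.90 and 8.82, and in neither comparison did it pass.

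**Figure D5:**
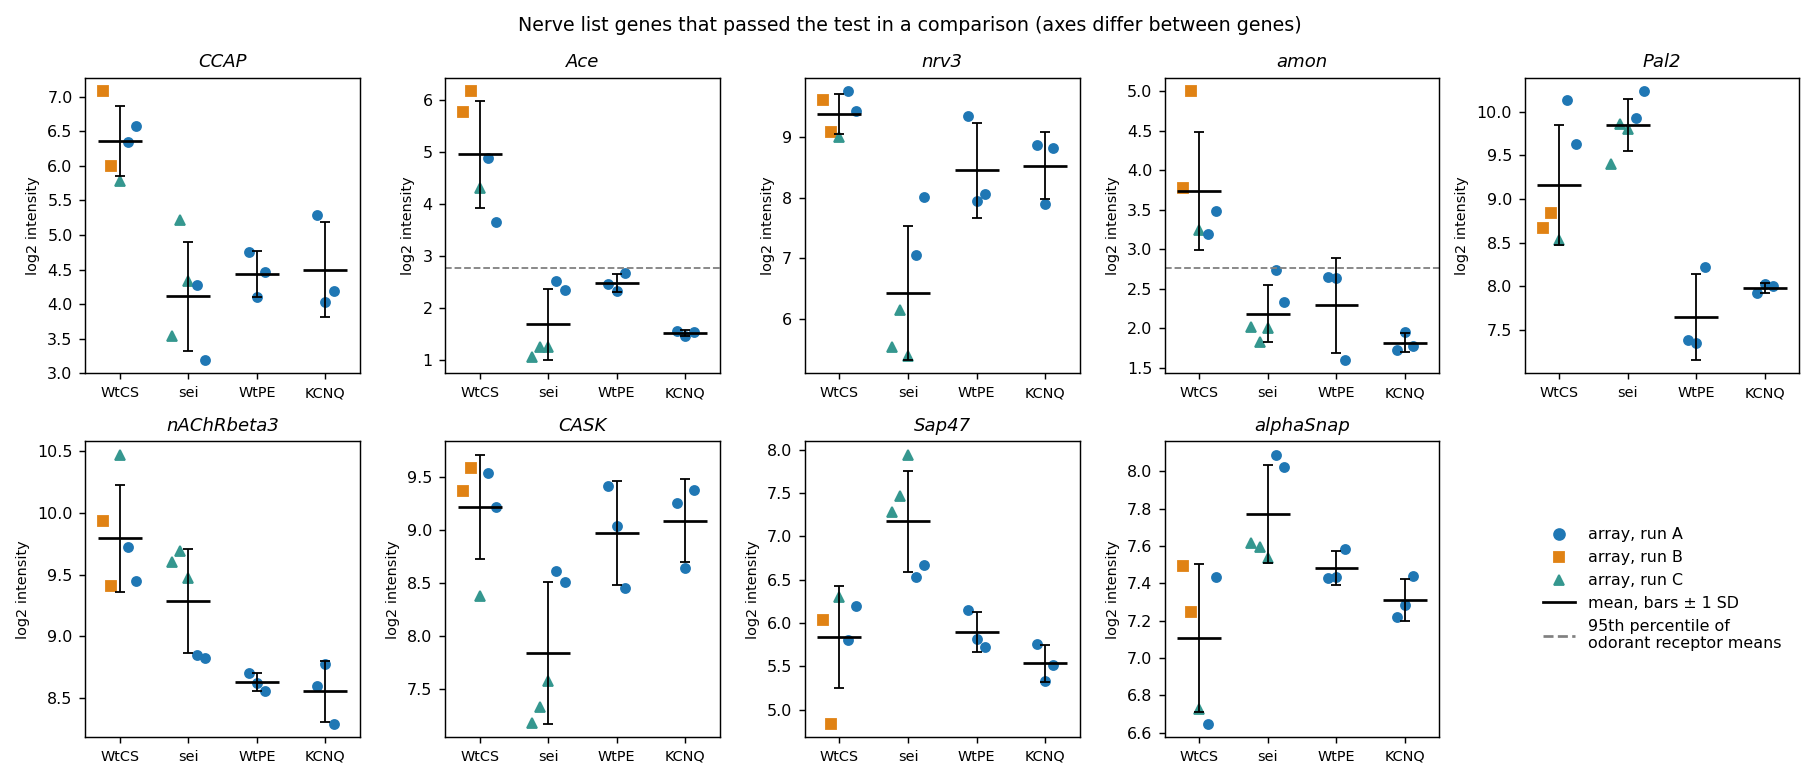
Log2 intensity of the 9 nerve list genes that passed in a comparison, by genotype, with 1 symbol per array, means, ± 1 SD and array runs. *CCAP*, *Ace* and *amon* are highest in WtCS, where *CCAP* runs from 5.78 to 7.08, while *nrv3* is lowest in *sei*, from 5.38 to 8.02.

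Of the 18 genes for neuropeptides and their processing, 2 fell and 16 did not pass in *sei* hearts, and 3 fell and 15 did not pass in WtPE hearts, where *sei* and WtPE share the WtCS arrays. The median was -0.06 in *sei* and -0.12 in WtPE. *CCAP*, for crustacean cardioactive peptide, had 7.08, 6.00, 5.78, 6.35 and 6.58 in WtCS and 3.55, 5.21, 4.33, 4.28 and 3.19 in *sei*. It had 4.76, 4.10 and 4.46 in WtPE and 5.28, 4.03 and 4.18 in *KCNQ* hearts, all below the 5 WtCS arrays. It fell by 2.25 ± 0.36 in *sei* (adjusted p = 0.000935) and by 1.92 ± 0.42 in WtPE (adjusted p = 0.0159), and within run A the difference in *sei* was -2.73 ± 0.58 (adjusted p = 0.0138), but within run C it was -1.41 (adjusted p = 0.318). The WtPE call was lost without WtPE replicate 2 or 3 (adjusted p = 0.0974 and 0.0549), and within run A the difference in WtPE was -2.03 ± 0.53 (adjusted p = 0.0194). *amon*, for the convertase that cuts neuropeptide precursors, had 3.20 to 5.00 in WtCS, 1.83 to 2.74 in *sei*, 1.60 to 2.65 in WtPE and 1.72 to 1.96 in *KCNQ* hearts, so that only WtCS stood above the dim reference, its lowest value near the single-array level of 3.195. On these dim values it fell by 1.55 ± 0.32 in *sei* (adjusted p = 0.00536) and by 1.44 ± 0.37 in WtPE (adjusted p = 0.0393), and within run A *sei* had -0.80 (adjusted p = 0.25) and WtPE -1.04 (adjusted p = 0.064). With run as a covariate *sei* had -1.01 (adjusted p = 0.0467) and WtPE -1.15 (adjusted p = 0.0284) for *amon*. In WtPE its call held in 6 of the 16 fits with 1 array left out (adjusted p up to 0.221, without WtPE replicate 3), and in *sei* in all 16. Besides both of these, WtPE had *Pal2*, for an enzyme that amidates peptides, with 8.54 to 10.13 in WtCS and 7.35 to 8.22 in WtPE, a fall by 1.51 ± 0.33 (adjusted p = 0.0172) that was lost without WtPE replicate 1 or 2 (adjusted p = 0.0955 and 0.108). Within run A the difference of *Pal2* was -2.23 ± 0.26 (adjusted p = 0.000197). Only 6 of the 18 had a mean above the dim reference.

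Of the 15 receptor genes for these transmitters 0 passed in *sei* hearts in the main limma fit. There 2 had an unadjusted p under 0.05, beside 4552 of all 18769 probesets. In WtPE hearts 1 receptor gene fell. It was *nAChRbeta3*, for a subunit of nicotinic acetylcholine receptors, with 9.41 to 10.47 in WtCS and 8.56 to 8.70 in WtPE, a fall by 1.17 ± 0.27 (adjusted p = 0.0208) that was lost without any single WtPE array (adjusted p from 0.07 to 0.0899). Within run A the difference in WtPE was -0.96 ± 0.19 (adjusted p = 0.00484). In *sei* hearts *nAChRbeta3* had -0.51 ± 0.23 in the main fit (adjusted p = 0.186), and it passed within run A and with run as a covariate.

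Markers of other cells moved in the same comparisons, and their part in the results above was not tested. Of 10 glia markers 2 fell in *sei* hearts, *repo*, for the glial transcription factor, by 2.07 ± 0.54 (adjusted p = 0.0208) and *Gli*, for a junction protein of glia, by 1.38 ± 0.40 (adjusted p = 0.0379), and within run A the values were -1.09 and -0.23 (adjusted p = 0.438 and 0.823). Both calls were lost without WtCS replicate 1 (adjusted p = 0.0576 and 0.101) or 2 (0.0542 and 0.0973), and that of *Gli* also without *sei* replicate 1, 2, 3 or 4 (adjusted p from 0.0675 to 0.104). The summed intensity of the 10 was 707.2 to 2120.6 in WtCS, 1366.9 to 1619.3 in *sei*, 2405.9 to 2640.4 in WtPE and 1908.0 to 2784.1 in *KCNQ* hearts. These sums depend largely on *Gs2*, the brightest of the 10, which ran from 6.05 to 10.94 over the 16 arrays. Of 7 hemocyte markers 5 fell and 1 rose in *sei* hearts by the brightest probeset of each. *Pxn*, counted there as a fall at -2.50 ± 0.43 (adjusted p = 0.00157), had a dimmer probeset at 1.11 ± 0.27 (adjusted p = 0.0139), so no direction can be given for it. The marker that rose was *NimC1*, with 6.20 to 7.58 in WtCS and 10.11 to 10.38 in *sei*. Its rise of 3.29 ± 0.23 (limma, adjusted p = 1.63e-07) was the largest change of the list, so the sums join markers that moved in opposite directions. The summed intensity of the 7 was 6374.0 to 8781.7 in WtCS, 3072.8 to 4202.0 in *sei*, 6165.7 to 6307.6 in WtPE and 4922.2 to 5764.4 in *KCNQ* hearts. WtCS overlapped with none of the other genotypes. In WtPE against WtCS 1 hemocyte marker, again *NimC1*, rose, by 3.48 ± 0.26 (limma, adjusted p = 7.47e-07), and 1 fell. The germline marker *bam* fell by 1.98 ± 0.27 (adjusted p = 0.000425) and the trachea marker *serp* fell by 1.23 ± 0.32 (adjusted p = 0.0439), a call kept in 4 of the 16 fits with 1 array left out. Within run A the difference of *serp* was -1.02 ± 0.23 (adjusted p = 0.00937). Of the 8 heart and muscle markers, the 6 of pericardial cells and the 8 of germline 1 each fell in *sei* hearts, and of the 4 of trachea 0 passed by limma, with 1 at an unadjusted p under 0.05. Fat body markers had sums of 7628.2 to 14791.7 in WtCS and 10008.7 to 15382.5 in *sei*, and 0 of 7 passed by limma, with 1 at an unadjusted p under 0.05. In *sei* against WtCS 4552 of all 18769 probesets had an unadjusted p under 0.05 by limma. The summed intensity of the 7 neuronal members was 351.3 to 521.1 in WtCS, 421.1 to 607.0 in *sei*, 577.3 to 798.2 in WtPE and 521.2 to 759.8 in *KCNQ* hearts, and *Csp* made up most of it.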

How the data were processed

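Biotinylated cRNA was hybridised, and the authors made the intensities by RMA in AltAnalyze (version not given in the sources used here). The deposited values are linear intensities, and log2 was taken before any test. Of 18952 probesets, 183 platform controls were left out, and 13647 of the 18769 tested have 1 gene symbol. limma 3.58.1 in R 4.3.3 fitted 4 group means to 16 arrays (12 residual and 3.68 prior degrees of freedom), with Benjamini-Hochberg adjustment over all probesets and a threshold of 0.05. For a gene with several probesets the brightest was used, but the search for probesets most like the members took every probeset with 1 symbol. Named genes are all members, up to 4 called genes of each list and the 10 probesets most like the members. A few markers are named for their level. Members and lists were chosen with earlier results of these data known. Alternatives were own groups only, a trend with robust prior, repeated quantile normalization, 75th percentile scaling, a mean of at least 5, array run as covariate, runs A and C alone, the replicate block, sample codes averaged, an unmoderated fit with each probeset's own spread, each array left out and the mean of a gene's probesets. Runs and codes were read from array names. Codes repeat for WtCS replicates 2 and 3, *sei* 2 and 5 and *sei* 3 and 4. Titles call all arrays biological replicates, and nothing else says that they came from separate animals. For arrays with 1 code the spread may be technical. Their number limits the precision. Scripts were tested on simulated data.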

Additional observations from a re-analysis of the deposited data

Results flagged for a closer look

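With 5 arrays in a group, 1 array stood apart from the other four in 2 of the 22 groups of WtCS and *sei* values of the 11 probesets, where chance gives about 1 in 20. On the brightest *brp* probeset *sei* replicate 4 had 3.03, while the others had 2.44 to 2.56. For *ChAT*, *sei* replicate 1 had 2.26, while the others had 2.71 to 2.87.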

How the results depend on the processing

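The 1 member probeset called in *sei* against WtCS was *VAChT*. The count was 0 with own groups only (*VAChT* -0.74), 75th percentile scaling (-0.77), a mean of at least 5 (*VAChT* not tested there), run as a covariate (-0.51), run C alone (-0.50) and the unmoderated fit. Within run A *VAChT* had -0.52, and the 1 call was a dimmer *brp* probeset (1.20 ± 0.31, adjusted p = 0.0351). In WtPE against WtCS the count rose from 0 to 1 with repeated quantile normalization (*VAChT* -0.80), 1 with a mean of at least 5 (*Csp* 0.81), 2 with run as a covariate (*Csp* 1.05, *VAChT* -0.86), 2 within run A (1.24 and -0.86) and 1 with codes averaged (*VAChT* -0.86).

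These changes turned their sign. *VGlut* in *sei* was 0.19 with run as a covariate, 0.15 within run A, 0.24 within run C and 0.034 as the mean of its probesets. *brp* as the mean of its probesets was 0.093 in *sei* and 0.14 in *sei* less *KCNQ*. *ChAT* in *sei* less *KCNQ* was 0.0063 within run A, *Csp* in *KCNQ* -0.011 with repeated quantile normalization, and *VGlut* in *sei* less *KCNQ* -0.067 with codes averaged. Replicate numbers did not pair the arrays (correlation of same-numbered deviations -0.04 to 0.53), and under the replicate block *VGlut* and *brp* in WtPE were 0.18 and 0.044, *VAChT* in *sei* remained called, and the counts over all probesets were 2699, 35, 728 and 319. Of 279 alternative fits of a member change other than those with 1 array left out, 255 kept direction and side of the threshold. The cause was not tested.

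All probesets called numbered 2089 in *sei*, 1254 with own groups only, 983 within run C and 597 by the unmoderated fit. In *KCNQ* 32 became 79 within run A, 66 with run as a covariate and 2 unmoderated. In WtPE 689 became 340 with own groups only, 3606 with run as a covariate, 3568 within run A, 1190 with codes averaged and 172 unmoderated. For *sei* less *KCNQ* 260 became 628 within run A, 495 with codes averaged and 459 with the run covariate.

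Nerve list genes called in *sei*, 7, were 11 within run A, 2 within run C and 4 unmoderated. In *KCNQ* 1 was called within run A, *Snap24* (1.03 ± 0.18, adjusted p = 0.0367). In WtPE 5 became 1 with own groups only, 3 with a mean of at least 5, 23 with run as a covariate, 0 unmoderated (10 at an unadjusted p under 0.05) and 20 within run A. For *sei* less *KCNQ* 0 became 1 with an intensity trend, 1 with a mean of at least 5, 1 under the replicate block, 2 within run A, 4 with codes averaged and 4 with run as a covariate.

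With each array left out in turn, member probesets called ran from 0 to 1 in *sei*, in WtPE and in *sei* less *KCNQ*. All probesets called ran from 1321 to 2674 in *sei*, 21 to 52 in *KCNQ*, 322 to 834 in WtPE and 179 to 425 for the difference, and nerve list genes from 6 to 11, 0 to 0, 1 to 5 and 0 to 1. Changes ran, in *sei*, *KCNQ*, WtPE and *sei* less *KCNQ*, from -0.53 to -0.21, -0.49 to 0.047, -0.65 to -0.11 and -0.41 to 0.12 for *elav*. For *nSyb* they ran from -0.24 to 0.037, -0.012 to 0.19, -0.51 to -0.31 and -0.36 to -0.04, and for *Csp* from 0.24 to 0.46, -0.13 to 0.17, 0.65 to 0.90 and 0.19 to 0.48. For *brp* they ran from -0.48 to -0.31, -0.12 to 0.025, -0.19 to 0.0077 and -0.46 to -0.26, and for *VGlut* from -0.22 to 0.13, -0.21 to 0.029, -0.29 to 0.026 and -0.11 to 0.23. For *ChAT* they ran from -0.56 to -0.29, -0.45 to -0.03, 0.58 to 0.92 and -0.37 to 0.048, and for *VAChT* from -0.93 to -0.66, 0.13 to 0.31, -0.92 to -0.70 and -1.17 to -0.87. *VAChT* was called in *sei* in 11 of 16 such fits, in WtPE without WtCS replicate 3 (adjusted p = 0.0389) or *sei* replicate 5 (adjusted p = 0.0162), and for the difference without *sei* replicate 5. Dim signal limits *VAChT*, *VGlut* and *brp*. Members with a mean under 5 could not be tested with that minimum, run C has 1 WtCS array, whose spread was assumed like that of the others, and *KCNQ* and WtPE lie in run A only.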
